A study of Mus musculus with 130 samples.

Results

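Chemokines are small secreted proteins that guide leukocytes along gradients, and 10 genes that encode them were followed in mouse liver: Ccl2, Ccl5, Ccl6, Ccl9, Ccl24, Cxcl1, Cxcl9, Cxcl10, Cxcl12 and Cx3cl1. They were chosen by name as the chemokine genes of interest in liver, with earlier results of these data known. Each was found among the 35274 gene identifiers of the diet tables and the 35711 of the strain tables. In the diet study, male C57BL/6J mice received chow, sufficient iron at 50 ppm, elevated iron at 500 ppm, 2% carbonyl iron, which is 20000 ppm, and a version of the latter whose fiber source was cellulose, with 3 animals on each. Feeding times and ages of these mice are not given in the sources used here. In the strain panel, males of 114 inbred strains received chow for 4 weeks and then 2% carbonyl iron for 6 weeks. The recombinant inbred strains numbered 56 BXD, 20 AXB/BXA, 4 BXH and 3 CXB, and 31 were classical inbred strains. A single animal stands for each strain, and 129X1/SvJ alone had 2. No panel strain was fed another iron level. RNA was taken from the large lobe, so every value is a sum over all cell types of the tissue.

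Each chemokine acts through receptors of the G-protein-coupled class on the cells it attracts. Ccl2 draws monocytes through Ccr2, Ccl5 draws T and natural killer cells, and Ccl6 and Ccl9 are rodent ligands of Ccr1. Ccl24 draws eosinophils through Ccr3, Cxcl1 draws neutrophils through Cxcr2, and Cxcl9 and Cxcl10 are interferon-induced ligands of Cxcr3. Cxcl12 is a homeostatic stromal ligand of Cxcr4 and Ackr3, and Cx3cl1 is made as a membrane-bound protein recognised by Cx3cr1. In liver, Kupffer cells, the resident macrophages, take up iron from old red cells and are themselves a source of several chemokines.

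Each diet library summed to 10.4 to 20.4 M estimated counts (M, 1000000), and each panel library to 9.41 to 20.6 M. Levels are given as CPM, counts per 1000000, after TMM scaling, and levels of different genes are compared only as TPM, the transcript equivalent, which divides by transcript length. Liver identity was clear from the summed level of 10 hepatocyte markers, which reached 80811 to 108033 CPM in the diet mice. A pair of libraries stood apart. Replicate 2 of the 500 ppm group had Cxcl1, Ccl6 and Ccl9 above its group mates, and the panel library labelled BXD65/RwwJ, a male per its label, had 3.94 CPM of 4 summed Y-linked genes, against 118 to 328 CPM in the other panel libraries. Without the 500 ppm mouse, several values changed and are given beside the results. Without BXD65/RwwJ, no call on a member between strain families changed.

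The genes lie in clusters that are typical of the family (GRCm38, GENCODE M21). On chromosome 11, Ccl2 (ENSMUSG00000035385) spans 82035571 to 82037453, Ccl5 (ENSMUSG00000035042) 83525778 to 83530518, Ccl9 (ENSMUSG00000019122) 83572919 to 83578636 and Ccl6 (ENSMUSG00000018927) 83587882 to 83593087. Only 9.245 kb separated Ccl9 from Ccl6. On chromosome 5, Cxcl1 (ENSMUSG00000029380) spans 90891241 to 90893115, Cxcl9 (ENSMUSG00000029417) 92321347 to 92328079, Cxcl10 (ENSMUSG00000034855) 92346638 to 92348889 and Ccl24 (ENSMUSG00000004814) 135569937 to 135573049. Cxcl9 and Cxcl10 were 18.558 kb apart. Cxcl12 (ENSMUSG00000061353) spans 117168535 to 117181367 on chromosome 6 and Cx3cl1 (ENSMUSG00000031778) 94772009 to 94782427 on chromosome 8.

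The 250 bases before the start site are shown for 5 members whose values carry the results: the neighbours Ccl6 and Ccl9, which behaved differently across diets and strains, Cxcl1, which had the largest SD of the members between mice of 1 diet, and the neighbours Cxcl9 and Cxcl10. The sequences are those of RefSeq on GRCm38.p6, written 5' to 3' along the strand of the gene. Capitals mark matches to kappa-B (GGGA, any 2 bases, TTCC) or the ISRE core (GAAA, any 2 bases, GAAA), searched on both strands along with GAS (TTC, any 3 bases, GAA).
Ccl6, chr11:83593088-83593337, minus strand: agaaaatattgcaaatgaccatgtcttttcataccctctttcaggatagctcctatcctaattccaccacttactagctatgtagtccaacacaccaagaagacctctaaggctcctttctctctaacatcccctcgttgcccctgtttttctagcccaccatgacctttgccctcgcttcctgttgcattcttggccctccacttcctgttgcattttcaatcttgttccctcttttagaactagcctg
Ccl9, chr11:83578637-83578886, minus strand: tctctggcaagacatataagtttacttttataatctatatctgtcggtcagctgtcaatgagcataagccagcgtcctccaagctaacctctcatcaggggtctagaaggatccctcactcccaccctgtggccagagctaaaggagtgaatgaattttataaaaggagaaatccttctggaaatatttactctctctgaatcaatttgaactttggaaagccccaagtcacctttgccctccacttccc
Cxcl1, chr5:90890995-90891244, plus strand: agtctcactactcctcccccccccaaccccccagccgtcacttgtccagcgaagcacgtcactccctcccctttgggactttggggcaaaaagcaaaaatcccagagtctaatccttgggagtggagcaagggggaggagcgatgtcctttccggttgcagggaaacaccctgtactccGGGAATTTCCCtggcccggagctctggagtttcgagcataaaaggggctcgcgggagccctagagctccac
Cxcl9, chr5:92328080-92328329, minus strand: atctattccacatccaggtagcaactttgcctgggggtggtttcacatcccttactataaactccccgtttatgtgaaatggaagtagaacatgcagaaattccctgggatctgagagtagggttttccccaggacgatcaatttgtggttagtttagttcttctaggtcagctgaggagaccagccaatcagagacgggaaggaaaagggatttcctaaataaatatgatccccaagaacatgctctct
Cxcl10, chr5:92348890-92349139, minus strand: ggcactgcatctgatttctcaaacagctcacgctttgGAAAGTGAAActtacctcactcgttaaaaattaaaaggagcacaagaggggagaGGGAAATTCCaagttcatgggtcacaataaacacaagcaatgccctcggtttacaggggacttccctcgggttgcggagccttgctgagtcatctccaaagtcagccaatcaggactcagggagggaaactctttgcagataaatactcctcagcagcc
RefSeq promoters of 300 bases, 250 before and 50 after the start, were matched for 7 of the 10 members, and Ccl2, Ccl5 and Ccl24 had no entry. Among 32851 promoters of that length, 1.47% held kappa-B, 3.44% the ISRE core and 8.30% GAS. The run of capitals in Cxcl1, 71 bases before the start, matched kappa-B on overlapping positions of both strands. In Cxcl10, kappa-B lay 159 bases and the ISRE core 213 bases before the start. The other 5 promoters searched held none of the 3 motifs. A match of letters is a description of the sequence and not a bound site.

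The diet comparison asks how dietary iron changes hepatic transcripts in 1 strain. Between 2% iron and 50 ppm, Ccl6 and Ccl24 rose and Cxcl12 fell, and the other 6 members tested did not pass the test. Ccl2 was removed by the filter on low counts, so 9 of the 10 members were tested. These 3 calls among 9 stand beside 15.7% of all 13560 genes tested, with 8.52% called higher and 7.17% lower. The median log2 change of the 9 members was 0.71, against 0.01 over all genes tested. Because the members were chosen with earlier results of these data known, this median is a description only. Of the genes called, 54.3% were higher, and 67.7% were with limma on log2(TPM + 1), which tests the authors' TPM without rescaling.

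**Figure D1:**
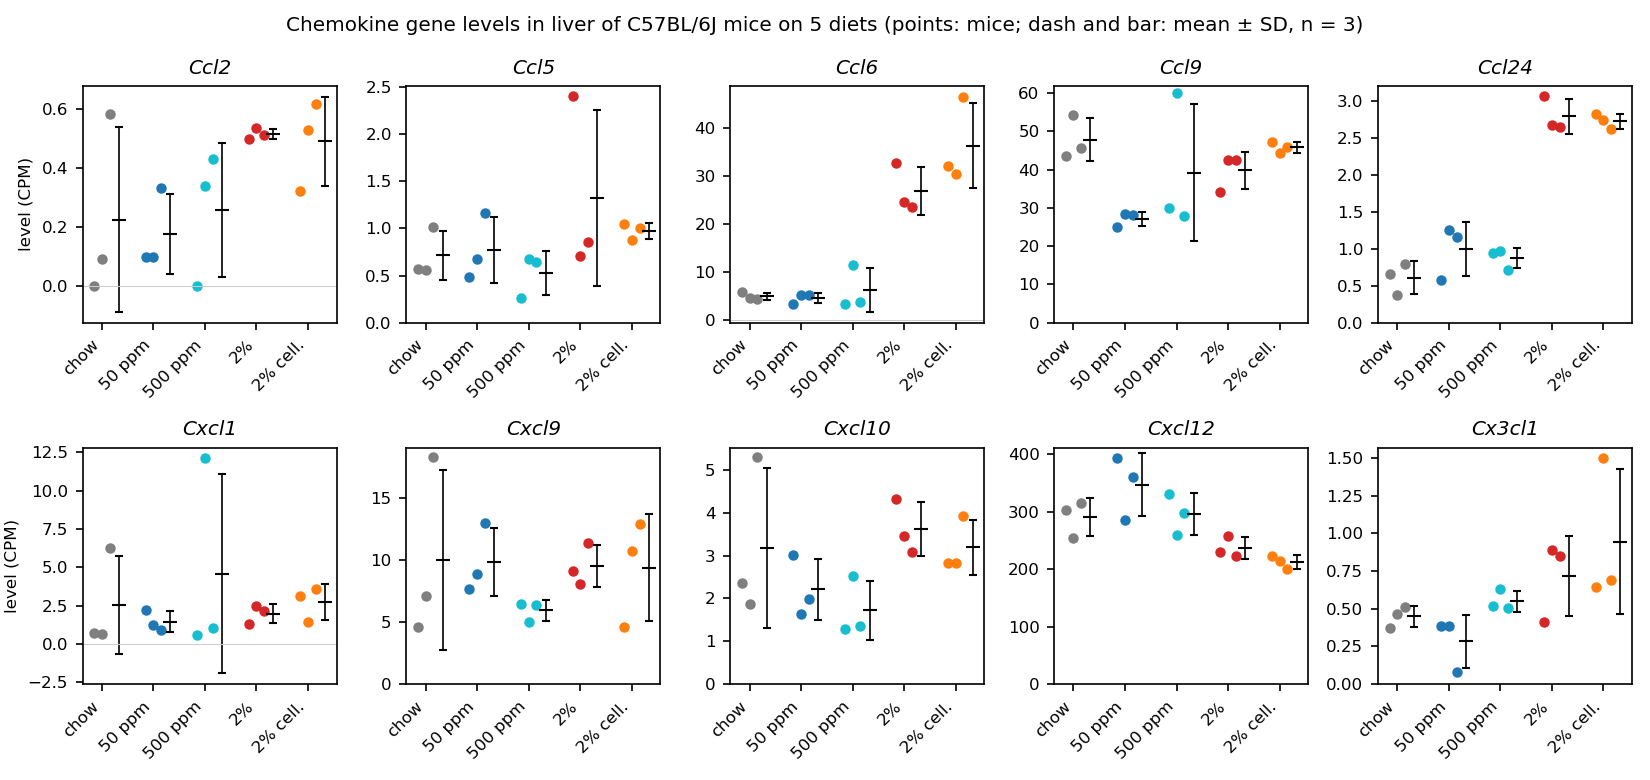
Level of each chemokine gene in CPM (y axis, linear) in every mouse of the 5 diets (x axis); points are mice and the dash with a bar is the mean ± SD of 3 mice. Ccl6 and Ccl24 are higher in both 2% groups than in every other mouse, Cxcl12 has its highest mean at 50 ppm, and single mice on chow and 500 ppm carry the high Cxcl1 values.

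Ccl6, a Ccr1 ligand of myeloid cells, showed the widest separation between diets. Its level was 3.20, 5.22 and 5.05 CPM in the 50 ppm mice, 5.73, 4.57 and 4.22 CPM on chow, and 3.36, 11.5 and 3.74 CPM at 500 ppm. In the 2% mice it was 32.6, 24.6 and 23.5 CPM, and with cellulose 31.96, 30.4 and 46.5 CPM. Every mouse of both 2% groups was above every mouse of the 3 other diets, replicate 2 of the 500 ppm group included. Against 50 ppm the log2 change was 2.58 ± 0.38 (SE), a 5.96-fold difference with an edgeR adjusted p of 0.00105. It was 2.48 against chow and 2.06 against 500 ppm, and the latter was 2.91 (adjusted p = 4.24e-05) without 500 ppm replicate 2. Fewer cells of a type and less RNA per cell cannot be told apart in whole-tissue RNA, and the same holds for more.

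Ccl24, the eotaxin that acts on Ccr3, followed the same diets at a lower level. It measured 0.582, 1.26 and 1.16 CPM at 50 ppm, 0.658, 0.373 and 0.800 CPM on chow and 0.947, 0.969 and 0.719 CPM at 500 ppm. The 2% mice had 3.07, 2.67 and 2.65 CPM and the cellulose mice 2.82, 2.73 and 2.62 CPM. Again no mouse on 2% iron overlapped a mouse on another diet, although the level rested on 6 to 14 counts per library at 50 ppm and 30 to 37 at 2%. The log2 change against 50 ppm was 1.47 ± 0.30 (SE, adjusted p = 0.00564), against 500 ppm 1.65 and against chow 2.15. Ccl6 and Ccl24 were the only members called in 2% iron against 500 ppm, where 11.3% of genes were called (6.59% higher), and against chow, where 22.8% were called (11.9% higher).

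Ccl9, the neighbour of Ccl6, rose less between 50 ppm and 2% iron and, unlike Ccl6, was high on chow. Ccl9 measured 24.9, 28.3 and 28.1 CPM at 50 ppm and 34.1, 42.6 and 42.6 CPM at 2% iron, groups that did not overlap. On chow it was already 43.6, 54.2 and 45.5 CPM, above every mouse on plain 2% iron, and with cellulose it was 47.2, 44.4 and 45.7 CPM, within the range on chow. At 500 ppm it was 29.9, 59.9 and 27.8 CPM. The change of 2% iron against 50 ppm was 0.55 ± 0.23 (log2 and SE) with an adjusted p of 0.117, and 0.0132 when only the 2 compared groups were fitted. With cellulose it was called, at 0.75 ± 0.23 and an adjusted p of 0.0222, a call lost without cellulose replicate 1 (adjusted p = 0.0613) and without 50 ppm replicate 1 (0.0780) or 3 (0.0501). Chow against 50 ppm gave 0.82 ± 0.23 with an adjusted p of 0.193, in a comparison where 0.391% of genes were called. The contrasts with 50 ppm share the same 3 control mice, so their values are not independent of each other.

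Ccl2, which attracts monocytes, and Ccl5, which attracts lymphocytes, were close to the counting limit. Ccl2 rested on 1, 1 and 4 counts at 50 ppm, 0, 1 and 8 on chow and 0, 7 and 6 at 500 ppm, against 6 in each 2% mouse and 4, 6 and 8 with cellulose. These counts overlapped between chow and the 2% diets and carry no test. Ccl5 measured 0.485, 0.677 and 1.16 CPM at 50 ppm and 2.40, 0.711 and 0.853 CPM at 2% iron, where the groups overlapped and 1 mouse was high. Its change of 0.75 ± 0.51 (log2 and SE) had an adjusted p of 0.343. In that mouse, replicate 1 of the 2% group, the summed lymphocyte markers were also the highest of the 15 diet libraries at 13.8 CPM, against 4.82 to 10.6 CPM in the others. The part of lymphocytes in the Ccl5 value was not tested.

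Cxcl1, the neutrophil-attracting chemokine, differed more between mice of 1 diet than between diets. At 50 ppm it was 2.23, 1.26 and 0.912 CPM, at 2% iron 1.33, 2.49 and 2.13 CPM and with cellulose 3.14, 1.41 and 3.62 CPM. Replicate 3 on chow reached 6.25 CPM beside 0.752 and 0.652 CPM, and replicate 2 at 500 ppm reached 12.1 CPM beside 0.603 and 1.08 CPM. The groups overlapped in every diet contrast, and the change of 2% iron against 50 ppm was 0.44 ± 1.07 (log2 and SE) with an adjusted p of 0.827. Against 500 ppm the change of -1.28 became 1.201 without replicate 2 of that group, and neither was called. The high 500 ppm mouse also had the highest neutrophil and monocyte marker sum of the chow, 50 ppm and 500 ppm mice, 26.1 CPM against 6.62 to 13.9 CPM. Every mouse on 2% iron had a higher sum, 27.02 to 40.6 CPM and 30.3 to 121 CPM with cellulose. Their Cxcl1 was 1.33 to 2.49 CPM and, with cellulose, 1.41 to 3.62 CPM. The part of neutrophils and monocytes in the Cxcl1 values was not tested.

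The Cxcr3 ligands Cxcl9 and Cxcl10 were not called in any diet contrast. Cxcl9 measured 7.66, 8.89 and 12.9 CPM at 50 ppm, 9.12, 8.09 and 11.3 CPM at 2% iron and 4.59, 10.7 and 12.9 CPM with cellulose, and 6.46, 4.99 and 6.40 CPM at 500 ppm. Its change of 2% iron against 50 ppm was -0.05 ± 0.43 (log2 and SE, adjusted p = 0.953). Cxcl10 was 3.00, 1.64 and 1.99 CPM at 50 ppm and 4.31, 3.47 and 3.07 CPM at 2% iron, and these groups did not overlap, with a change of 0.71 ± 0.39 and an adjusted p of 0.236. Without replicate 2 of the 500 ppm group, 2% iron against 500 ppm gave 4 called members in place of 2. Over all genes, the same fit called 2204 in place of 1538. The added members were Cxcl10, at a log2 change of 1.43 (adjusted p = 0.0389), and Ccl9, at 0.46 (adjusted p = 0.0197). Replicate 3 on chow held the highest value of the 15 mice for both Cxcl9, 18.2 CPM, and Cxcl10, 5.31 CPM.

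Cxcl12, the homeostatic ligand of Cxcr4, was the most abundant member on the TPM scale and the only member to fall. At 50 ppm its mean was 132 TPM, against 26.3 TPM for Ccl9, 5.65 TPM for Ccl6 and 0.261 to 3.58 TPM for the other 7 members. It measured 393, 286 and 361 CPM at 50 ppm, 303, 254 and 315.8 CPM on chow, 330, 259 and 298 CPM at 500 ppm, 230, 258 and 222 CPM at 2% iron and 224, 214 and 200 CPM with cellulose. The 2% and 50 ppm groups did not overlap, while the chow mice overlapped both and every 500 ppm mouse was above every 2% mouse. The change of 2% iron against 50 ppm was -0.55 ± 0.13 (log2 and SE, adjusted p = 0.0121) and with cellulose -0.70 ± 0.13 (adjusted p = 0.00155). The call without cellulose did not survive leaving out 2% replicate 3 (adjusted p = 0.0516) or 50 ppm replicate 1 (0.0652), nor the fit with limma on log2(TPM + 1) (0.0662). Against 500 ppm and chow the change was -0.32 and -0.30, and neither was called.

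Cx3cl1, the membrane-bound ligand of Cx3cr1, rested on 4, 4 and 1 counts at 50 ppm, 5, 10 and 10 at 2% iron and 8, 17 and 9 with cellulose. In CPM the 2% and 50 ppm groups did not overlap, with a change of 1.33 ± 0.55 (log2 and SE, adjusted p = 0.121). With cellulose the change of 1.72 ± 0.53 was called (adjusted p = 0.0272). With no filter on low counts its adjusted p was 0.0574, without cellulose replicate 2 it was 0.135 and without 50 ppm replicate 3 it was 0.107. With limma the change was 0.15 (adjusted p = 0.735) on log2(TPM + 1) and 0.64 (adjusted p = 0.595) on log2(TPM + 0.1). The TPM of 2% iron went the other way, 0.240 ± 0.095 against 0.433 ± 0.364 (SD, n = 3) at 50 ppm, so the direction depended on the unit.

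**Figure D2:**
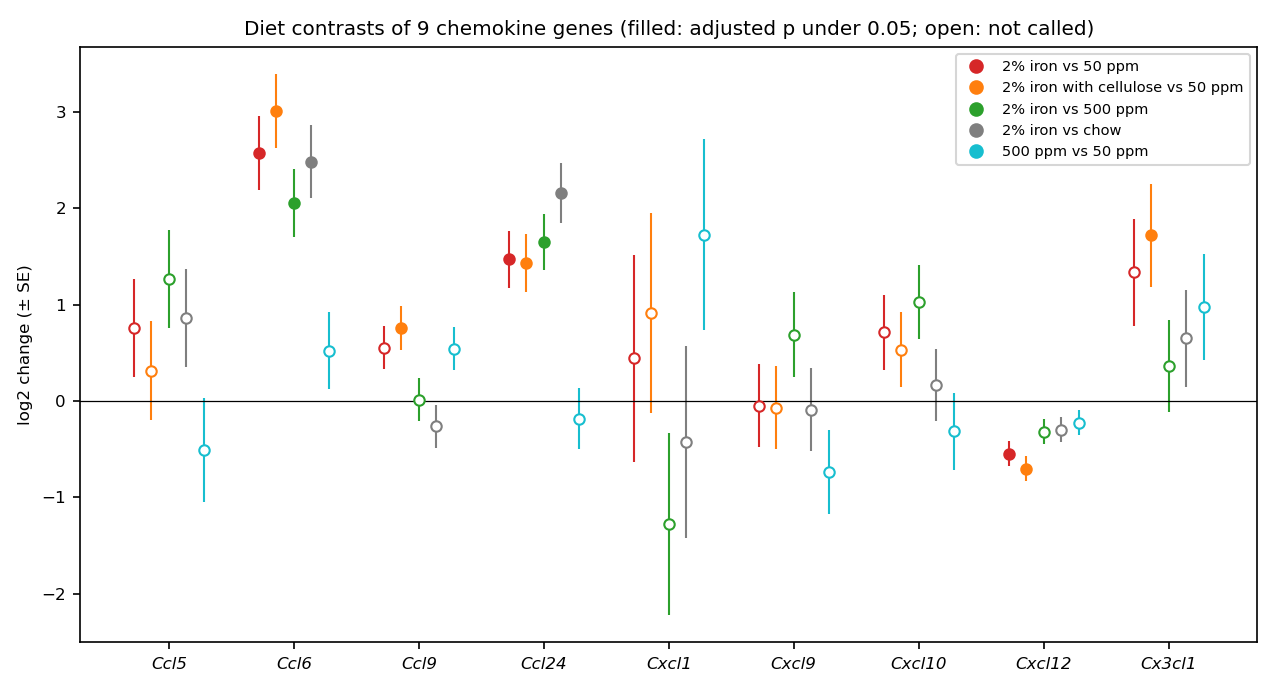
Log2 change ± SE (y axis) of the 9 members tested (x axis) in 5 diet contrasts from the edgeR fit, coloured by contrast; filled points have an adjusted p under 0.05. Ccl6 and Ccl24 are filled in every contrast that sets 2% iron against a lower diet, and no member is filled in 500 ppm against 50 ppm.

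Across contrasts, the 2% diet with cellulose against 50 ppm called 5 members, Ccl6, Ccl9, Ccl24 and Cx3cl1 higher and Cxcl12 lower, beside 29.7% of all genes (15.4% higher and 14.3% lower). With limma on log2(TPM + 1) it called 3. On that scale the share of called genes that were higher was 74.1% in place of 51.7% for this contrast, 76.5% in place of 58.1% for 2% iron against 500 ppm and 72.0% in place of 52.1% against chow. In 500 ppm against 50 ppm edgeR called 0 members and 0.0% of genes, with Ccl9 alone at an unadjusted p under 0.05 (0.0307), and DESeq2 called 2 genes in all, neither of them a member. In chow against 50 ppm edgeR called 0 members and Ccl9 alone had an unadjusted p under 0.05, while DESeq2 called Ccl9 (adjusted p = 0.0439). Cellulose against plain 2% iron gave 0 members called by edgeR or DESeq2, none at an unadjusted p under 0.05, and 0.0811% of genes. Groups that did not overlap were found for 6 of the 9 tested members in 2% iron against 50 ppm, a property shared by 36.8% of all genes tested in that contrast. The same count was 5 with cellulose against 50 ppm (44.5% of genes) and 6 in 2% iron against 500 ppm (29.9%). It was 3 in 2% iron against chow (40.1%), 2 in 500 ppm against 50 ppm (7.25%, Cxcl9 lower and Cx3cl1 higher), and 1, Ccl9, both for chow set against 50 ppm (17.1%) and for the 2 diets at 2% iron (17.4%).

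Among the other genes of the chemokine system, few were tested and fewer were called in 2% iron against 50 ppm. Of 25 other chemokine genes 8 were tested and 2 rose, Pf4, the platelet factor, by 3.80 on the log2 scale (adjusted p = 0.0392) and the scavenger chemokine Cxcl16 by 0.54 (adjusted p = 0.0351). Among the receptor genes, Ccr2, Cxcr2, Cxcr4 and Cx3cr1 were tested and not called, and Ccr1, Ccr3, Cxcr3 and Ackr3 were too low to be tested. Of 18 genes of the NF-kB response 14 were tested, with 3 higher (Vcam1, Relb and Nfkbiz) and 1 lower (Sod2), and of 20 interferon gamma response genes 18 were tested and 4 rose (Cd274, Gbp3, Irf8 and Irgm1). Over all genes, 8.52% were called higher and 7.17% lower in this contrast. In 2% iron against 500 ppm, 11 of the 18 interferon gamma genes rose, beside 6.59% of all genes. Against chow 5 rose, beside 11.9%. The list's median log2 change was -0.32 in 500 ppm against 50 ppm, where 0 were called.

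Markers of the liver's macrophages moved with Ccl6 and Ccl24. Of 15 Kupffer and macrophage markers, 13 rose in 2% iron against 50 ppm, with a median log2 change of 1.48, and none of the 15 was at 0 in all diet mice. Their summed level was 800 to 871 CPM at 2% iron and 832 to 1226 CPM with cellulose, against 213 to 344 CPM at 50 ppm, 246 to 292 CPM on chow and 192.99 to 373 CPM at 500 ppm. Of 11 neutrophil and monocyte markers tested, 3 rose (Itgam, Csf3r and Plac8), and the list's sum was 27.02 to 40.6 CPM against 8.72 to 13.9 CPM. With cellulose, 9 of the 11 rose against 50 ppm, with a median log2 change of 4.10, beside 15.4% of all genes called higher. The list's sum was 30.3 to 121 CPM with cellulose, and the 121 CPM was that of replicate 1 alone. Between cellulose and plain 2% iron, 0 of the 11 markers and 0 members were called. In plain 2% iron against 50 ppm, none of 6 lymphocyte markers tested was called. There, 1 of 10 sinusoidal endothelial markers (Stab2) and 1 of 11 stellate and fibroblast markers (Colec11) rose. Of 10 hepatocyte markers, 3 fell (Cyp2e1, Apoa1 and Serpina1c). Over all genes in that contrast, 8.52% were called higher and 7.17% lower. The part of each cell type in the chemokine values was not tested.

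In the panel, where all strains ate 2% iron, the members ranged widely from strain to strain. Ranked by median TPM, the level was 103 for Cxcl12, 65.3 for Ccl9, 27.4 for Ccl6 and 10.05 for Cxcl1, and the other members lay between 0.337 for Cx3cl1 and 2.75 for Cxcl10. Cxcl10, Ccl24, Ccl5 and Cxcl9 had medians of 2.59 to 2.75 TPM, and the middle ranges of their strains overlapped. The strain SD of log2 CPM was set beside the SD between mice of 1 diet in C57BL/6J. With 1 mouse for nearly every strain, the strain SD also holds the spread between mice. The ratio of the strain SD to the SD within diets was 2.49 for Ccl24, 2.15 for Cxcl10 and 1.84 for Ccl6. It was 1.79 for Cxcl12, 1.73 for Cxcl9, 1.66 for Ccl9, 1.55 for Cx3cl1, 1.42 for Ccl5 and 1.18 for Ccl2. For Cxcl1 it was 0.80, and the median over 13410 genes was 1.65. Cxcl1 was thus the only one of the 10 whose strain SD (1.03) was below this pooled SD (1.29). The pooled SD includes the single high mice on chow (6.25 CPM) and at 500 ppm (12.1 CPM). On 2% iron, the diet of the panel, the C57BL/6J mice had 1.33 to 2.49 CPM, and with cellulose 1.41 to 3.62 CPM. A ratio from the 2% mice alone is not given here.

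**Figure D3:**
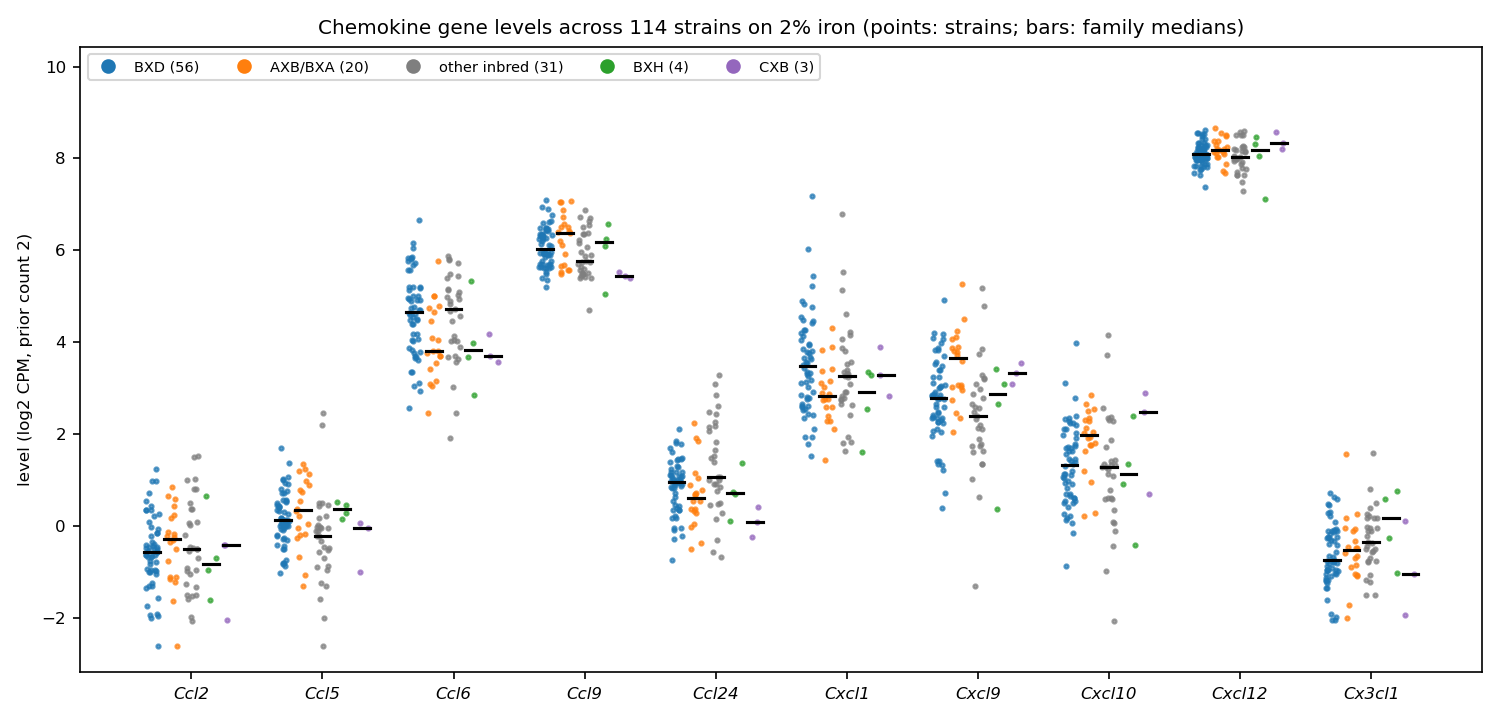
Level of each chemokine gene (y axis, log2 CPM with a prior count of 2) in every strain of the panel, coloured by strain family and with family medians as bars. Cxcl12 spans the narrowest range of the 10 genes, and the highest strains for Cxcl1 descend in steps from 7.19 to 6.80 and 6.03.

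Ccl6 ran from 3.58 CPM in CE/J to 101 CPM in BXD60/RwwJ, with a median of 22.9 CPM. The C57BL/6J mouse had 44.7 CPM, DBA/2J 12.6 CPM and A/J 12.7 CPM, each from 1 mouse with no spread. Ccl9 showed another order, with 45.1 CPM in C57BL/6J, 106 CPM in DBA/2J and 103 CPM in A/J, a range from 25.9 CPM in BTBR T<+> tf/J to 136 CPM in BXD34/TyJ, and a median of 62.4 CPM. Ccl24 ran from 0.436 CPM in BXD18/TyJ to 9.55 CPM in BTBR T<+> tf/J, which had the lowest Ccl9 of the panel. The 4 strains highest for Ccl24 were BTBR T<+> tf/J, SEA/GnJ, SJL/J and PL/J, all of them inbred strains outside the recombinant families.

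Cxcl1 had a median of 9.38 CPM and reached 146 CPM in BXD48/RwwJ and 111 CPM in NON/ShiLtJ, with BXD38/TyJ next at 65.1 CPM. The related substrain BXD48a/RwwJ had 5.87 CPM, while its Ccl6 (47.6 CPM) and Cxcl12 (248.2 CPM) stood beside 36.7 and 243.7 CPM in BXD48/RwwJ. Cxcl9 ran from 0.242 CPM in NZB/BlNJ to 38.1 CPM in AXB12/PgnJ, and I/LnJ, BXD62/RwwJ and KK/HlJ followed at 35.9, 29.95 and 27.4 CPM. Those strains were also among the highest for Ccl5, with I/LnJ at 5.31, KK/HlJ at 4.42 and BXD62/RwwJ at 3.05 CPM. Cxcl10 had its highest level in C57L/J, 17.7 CPM, and NZB/BlNJ, lowest for Cxcl9, ranked 3 of 114 for Cxcl10 at 13 CPM. Cxcl12 stayed between 139 CPM in BXH2/TyJ and 405 CPM in AXB19b/PgnJ. Ccl2 was 0 to 2.70 CPM and Cx3cl1 0.0801 to 2.84 CPM, both near the counting limit.

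The 2 mice of 129X1/SvJ give the only direct view of spread within a strain in the panel. They had 13.5 and 10.2 CPM of Ccl6, 81.5 and 69.1 CPM of Ccl9, 268 and 254 CPM of Cxcl12 and 8.75 and 6.15 CPM of Cxcl1. Cxcl10 differed more, at 3.77 and 1.43 CPM. For the C57BL/6J panel mouse and the 2% mice of the diet study, Cxcl1 was 10.2 TPM against 1.41, 2.48 and 2.05 TPM and Ccl6 51.9 TPM against 38.03, 29.97 and 25.6 TPM. The lowest Cxcl1 of the panel, 2.53 TPM in BXA12/PgnJ, was above all 3 of those mice. The mice on 2% iron with cellulose had 3.15, 1.59 and 4.29 TPM, on both sides of that value. The tables of the studies were made separately and no test was run across them.

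BXD strains descend from C57BL/6J and DBA/2J and AXB/BXA strains from A/J and C57BL/6J, and the comparison of these families used the strain as replicate. Ccl6 and Cxcl1 were higher and Cxcl9 lower in the 56 BXD strains, 3 of the 9 members tested, beside 11.6% of 13794 genes (6.62% higher and 5.02% lower). The median CPM in BXD and AXB/BXA was 25.1 and 13.8 for Ccl6, 10.9 and 6.89 for Cxcl1 and 6.76 and 12.3 for Cxcl9, and the ranges of the families overlapped for all 3. The log2 difference was 0.68 ± 0.23 (SE, adjusted p = 0.0438) for Ccl6, 0.99 ± 0.30 (adjusted p = 0.0205) for Cxcl1 and -0.67 ± 0.22 (adjusted p = 0.0310) for Cxcl9.

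Single strains decided part of this. Without AXB12/PgnJ, the strain with the highest Cxcl9, the difference of Cxcl9 was -0.51 with an adjusted p of 0.120, that of Ccl6 was 0.64 with an adjusted p of 0.0695, and 1 member was called in place of 3. Without BXD60/RwwJ, the highest in Ccl6, the adjusted p of Ccl6 was 0.0612. Without BXD48/RwwJ, the highest in Cxcl1, all 3 calls stood, and they did so without BXD65/RwwJ. The Ccl6 call was also lost with no filter on low counts (adjusted p = 0.0625), with substrains reduced (0.0849) and with limma on log2(TPM + 1) (0.0908), and the Cxcl1 call was lost with limma (0.103). These single-strain checks, apart from BXD65/RwwJ, were chosen after the values were seen. None of 15 Kupffer and macrophage markers was called between the families, while 2 of 11 neutrophil and monocyte markers tested, Itgam and Csf3r, were higher in BXD. Of 12 receptor genes tested, 2 were higher in BXD, Ccr3 by 2.24 on the log2 scale and Cxcr2 by 0.50. Of 7 other chemokine genes tested, 3 were higher, Cxcl14 by 2.45, Ppbp by 2.06 and Cxcl13 by 2.02. Over all genes, 6.62% were called higher. In the diet mice Ccr3 had group means of 0 to 0.197 CPM, and its panel level is not given here. The part of eosinophils and neutrophils in these values was not tested.

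Relations across the 114 strains were computed for the 45 pairs of members, each member against 5 summed marker lists and 10 ligand and receptor pairs. For 11 relations, among them all 10 with the neutrophil and monocyte sum, a measure fell into separate clusters of strains. These have no pooled value, and 94 were tested. By Pearson's r, 30 passed an adjusted permutation p of 0.05, 23 positive and 7 negative, and 24 also passed by Spearman's rho. Without BXD65/RwwJ, 31 passed by r and 22 by both. Within families the count was 7 in BXD, 0 in AXB/BXA (17 at an unadjusted p under 0.05, and 1 called by rho) and 9 in the other inbred strains. Marker sums and genes of 1 strain come from the same library, and the strains of a family share parents.

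**Figure D4:**
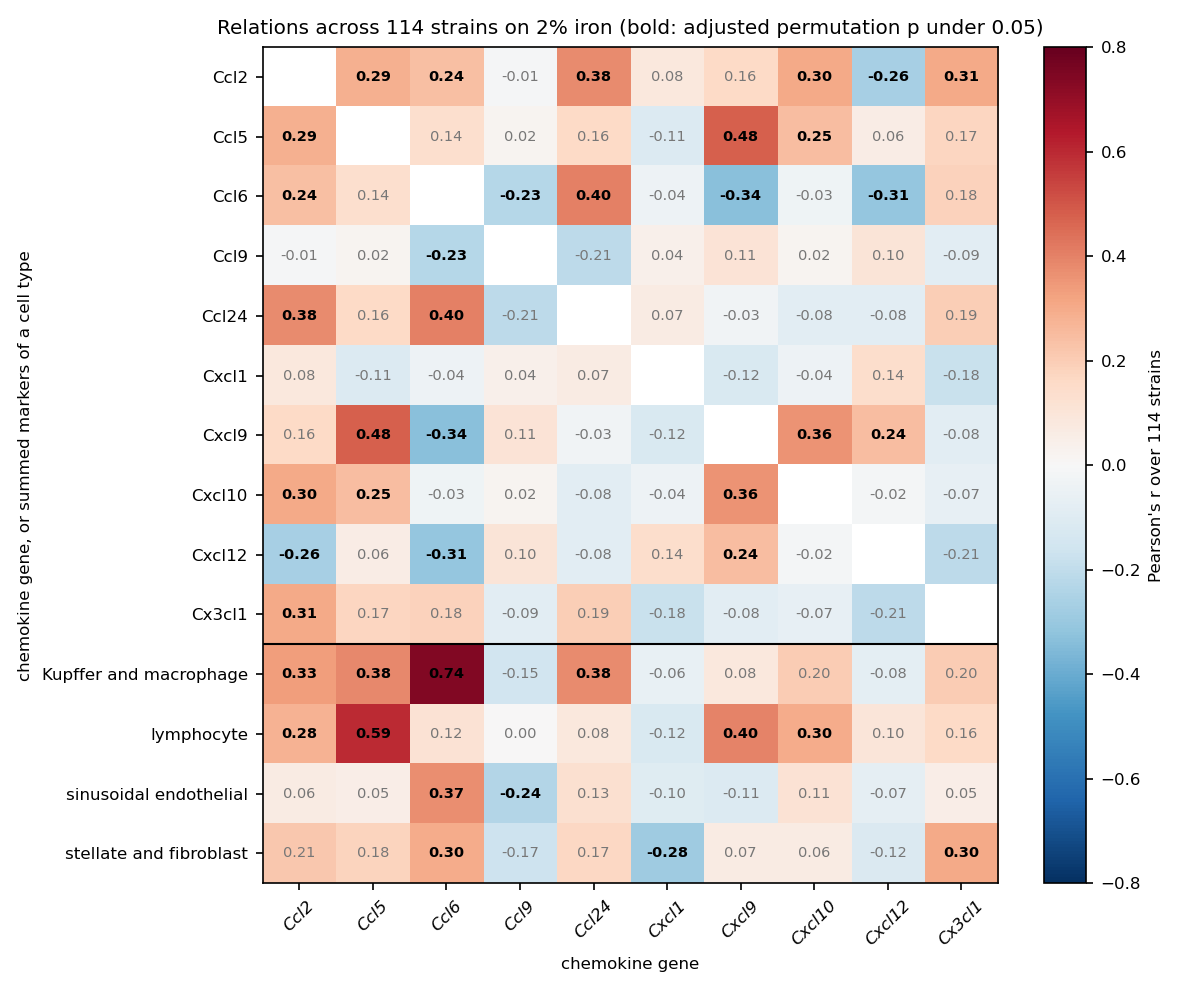
Pearson's r over 114 strains for each pair of chemokine genes (upper block) and for each gene against the summed markers of 4 cell types (lower block, log2 CPM); bold values passed an adjusted permutation p of 0.05. The strongest cell is Ccl6 with the Kupffer and macrophage sum, followed by Ccl5 with the lymphocyte sum.

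Ccl6 followed the Kupffer and macrophage markers across strains, with r = 0.743 and rho = 0.728. Both permutation p-values were 1e-05, the smallest that 100000 permutations can give, and 0.000157 after adjustment over the relations. Without the 2 strains farthest from the median r was 0.719. Within families it was 0.810 in BXD (adjusted p = 0.00094), 0.617 in AXB/BXA (adjusted p = 0.0537) and 0.826 in the other inbred strains (adjusted p = 0.00094). Ccl6 also rose with Ccr1, its receptor gene (r = 0.560, rho = 0.556, permutation p = 1e-05), with r = 0.612 in BXD, 0.237 in AXB/BXA and 0.531 in the other inbred strains. Ccl24 followed the same macrophage sum less closely, at r = 0.379 and rho = 0.380, and within each family it missed the threshold (r = 0.352, 0.676 and 0.435). Ccl9, the neighbour of Ccl6, had r = -0.154 with that sum (adjusted permutation p = 0.192), and r = -0.230 with Ccl6 itself, a value that did not pass by rho (-0.193, adjusted permutation p = 0.107).

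**Figure D5:**
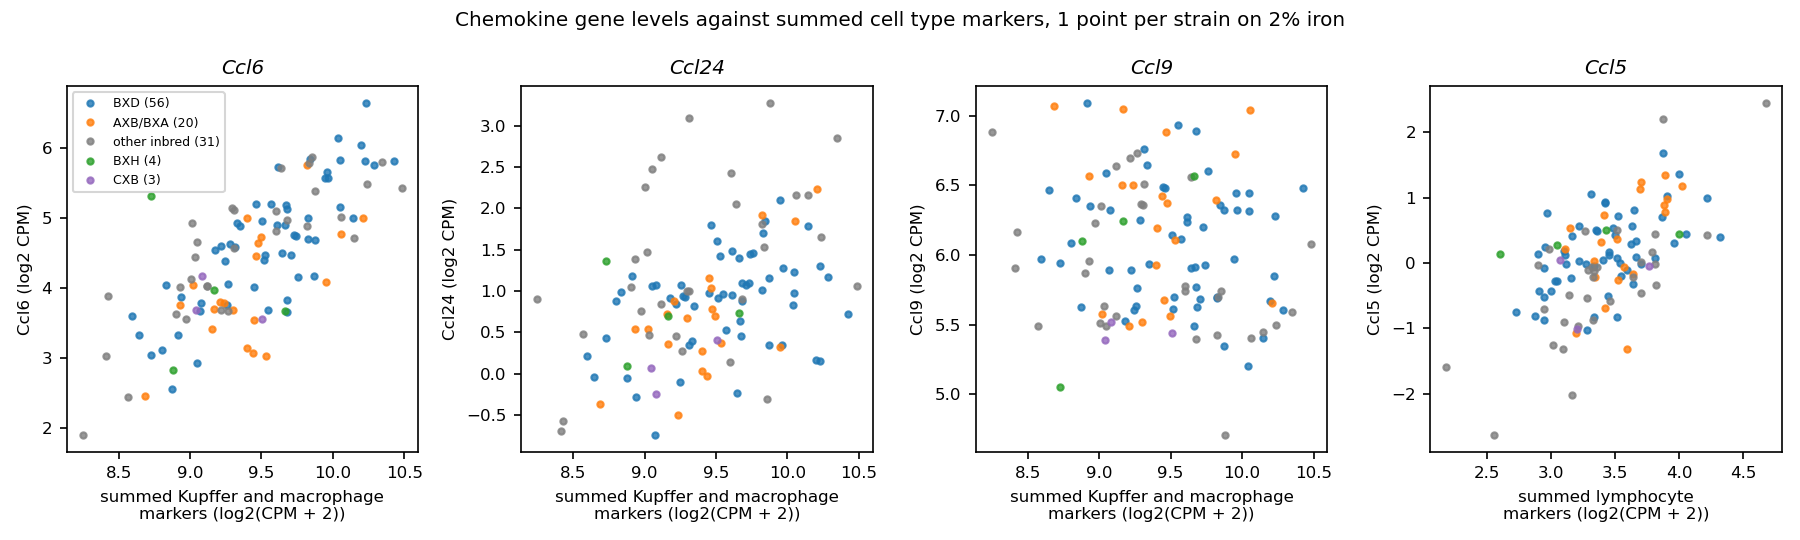
Level of Ccl6, Ccl24, Ccl9 and Ccl5 (y axis, log2 CPM) against the summed markers of a cell type (x axis, log2(CPM + 2)), 1 point per strain and coloured by family. Ccl6 and Ccl5 rise with their marker sum (r = 0.743 and 0.595), Ccl24 rises less closely (r = 0.379) and Ccl9 has r = -0.154.

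Ccl5 and Cxcl9, which attract lymphocytes, rose with lymphocyte markers over all strains. Ccl5 had r = 0.595 and rho = 0.518 with the summed lymphocyte markers (permutation p = 1e-05 for both), 0.524 without the 2 farthest strains, and 0.521, 0.557 and 0.744 within BXD, AXB/BXA and the other inbred strains, where BXD and other inbred passed the adjusted threshold. Cxcl9 had r = 0.400 and rho = 0.328 with that sum (permutation p = 1e-05 and 0.0004), and within the families r was 0.220, 0.419 and 0.459, none past the adjusted threshold. Cxcl9 and Ccl5 had r = 0.478 and rho = 0.449 (permutation p = 1e-05 for both), which held within the other inbred strains (r = 0.635) and passed in neither BXD (r = 0.246) nor AXB/BXA (r = 0.512). Cxcl9 and its neighbour Cxcl10 had r = 0.357 and rho = 0.435 (permutation p = 0.00012 and 1e-05), with r = 0.239, 0.638 and 0.214 in the families, none past the adjusted threshold. Cxcl9 and Ccl6 ran in opposite directions (r = -0.336, rho = -0.351, permutation p = 0.00028 and 0.00022), a relation that held within BXD (r = -0.434) and was -0.186 on the log2(TPM + 1) scale, where it was not called. Cxcl12 fell as its receptor gene Cxcr4 rose (r = -0.383, rho = -0.356, permutation p = 5e-05 and 0.00011), with r = -0.308 in BXD, 0.327 in AXB/BXA and -0.569 in the other inbred strains, so the direction differed in AXB/BXA.

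For each member, the genes whose levels were most like it across the 114 strains were listed by Spearman's rho among 12044 genes, as a description with no test. Ccl6 was most like Csf2rb2, Sla and Csf2rb (rho = 0.871, 0.869 and 0.854), cytokine receptor and adaptor genes of myeloid cells. Cxcl9 was most like Gbp10, Bst2 and Gbp3 (rho = 0.708, 0.698 and 0.696), and Cxcl10 was most like Cmpk2, Ifit1 and Isg15 (rho = 0.549, 0.526 and 0.520), all 6 of them interferon-induced genes. Ccl5 was most like Il2rb, Klrk1 and Tcirg1 (rho = 0.580, 0.522 and 0.497), the first 2 of which are receptors of natural killer and T cells. Ccl9 was most like Ces1g (rho = 0.568), a liver esterase, followed by Bche and Hspe1 at 0.430 and 0.424. Cxcl12 was most like Marveld1, Naa60 and Clcn2 (rho = 0.658, 0.610 and 0.604) and Cxcl1 like Nos1ap, Saa4 and Pdia5 (rho = 0.480, 0.480 and 0.474), Saa4 being a serum amyloid gene. Ccl2, Ccl24 and Cx3cl1 had their closest genes at 0.566 (Cd300lb), 0.464 (Snx6) and 0.438 (Spsb1). For Ccl24 and Snx6, rho was 0.237 on the log2 TPM scale, below the 0.490 of Csf2rb with Ccl24 on that scale.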

How the data were processed

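Liver RNA of 130 male mice was sequenced from stranded mRNA libraries (KAPA kit), per the labels' protocols, which give 3 mice per diet and 1 mouse per strain. The authors quantified reads with kallisto 0.46 and the build mm10, per the submitters' processing notes. How transcripts were summed to genes, and whether strand was used, is not given in the sources used here. The deposited tables hold estimated counts per gene, judged from values that are partly not whole, and TPM from the authors for the same mice. The diet and strain tables were normalized separately and never shared a test.

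Estimated counts were rounded, because the planned test assumed whole counts. Differences were tested per gene by quasi-likelihood in edgeR 4.0.16 (R 4.3.3), with TMM factors, filterByExpr, all 5 diets in 1 fit and Benjamini-Hochberg adjustment over all genes tested (called at adjusted p under 0.05, two-sided). Symbols and coordinates came from GENCODE M21 on GRCm38. Relations used log2 CPM with a prior count of 2 and two-sided permutations (100000), and a measure counted as clustered where a mixture of 2 normal components separated well (Ashman D above 3, BIC gain above 10, at least 3 strains in each). The scripts were tested on simulated data. Alternatives were RLE factors, no filter, DESeq2 1.42.0, limma 3.58.1 on log2(TPM + 1) and log2(TPM + 0.1), the compared groups alone, each mouse left out, substrains reduced and BXD65/RwwJ left out. Leaving out BXD48/RwwJ, BXD60/RwwJ or AXB12/PgnJ was chosen after seeing the data. Python 3.11.15 with scipy 1.17.1 and scikit-learn 1.9.0 was also used.

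The members and gene lists were chosen with earlier results of these data known. All 10 members are named, with up to 4 called genes per list by size of change at a mean of at least 1 CPM, the members' receptors and the 3 genes most like each member. Substrain values were picked after they were seen. Counting error alone limits members under about 10 counts per library. Mice of a group differed by more than sampling noise. The edgeR p-values set a group difference against a spread estimated from all the mice of the fit. A result for 1 gene of the lists is not reported here.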

Additional observations from a re-analysis of the deposited data

How the results depend on the processing

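No paired analysis was possible because the labels give no replicate numbers that pair mice across diets. Of 826 values of members under alternative settings, 800 kept their side of the threshold, 55 of these being uncalled values that changed sign. Another 21 lost a call, 5 gained one and 0 reversed a call. Ccl6 and Ccl24 kept their calls in all alternatives of 2% iron, with and without cellulose, against 50 ppm and of 2% iron against 500 ppm and chow. Members called in cellulose against 50 ppm were 3 with limma on log2(TPM + 1) and on log2(TPM + 0.1), and 3 to 5 when a mouse was left out. In 2% iron against 500 ppm they were 2 to 4 when a mouse was left out. In chow against 50 ppm 1 was called by DESeq2 and 1 with the compared groups alone. In BXD against AXB/BXA 1 was called with limma on log2(TPM + 1) and 1 without AXB12/PgnJ. The cause was not tested. Called relations numbered 26 to 36 under the alternatives, and of 150 repeats 136 kept their call.

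Counts over all genes moved more. In 2% iron against 50 ppm, 2127 genes were called, 1190 with limma on log2(TPM + 1), 1093 on log2(TPM + 0.1) and 1003 to 1640 with a mouse left out. In 2% iron against 500 ppm, 1538 became 895 and 789 with limma, 924 with the compared groups alone and 788 to 2204 with a mouse left out. Against chow, 3087 became 1921 and 1928 with limma. Cellulose against 50 ppm went from 4026 to 2643 and 2466, and its median over all genes moved to 0.11 and 0.14. Chow against 50 ppm went from 53 to 147 with DESeq2, 14 and 19 with limma, 26 with the compared groups alone and 4 to 62 with a mouse left out. Cellulose against plain 2% iron went from 11 to 224 with DESeq2, 51 without a filter, 23 with the compared groups alone and 0 to 212 with a mouse left out. BXD against AXB/BXA went from 1606 to 910 with limma. Low counts limit Ccl2, Ccl5, Ccl24 and Cx3cl1.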
